A study of Homo sapiens with 3 samples.

Results

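The thioredoxin and peroxiredoxin system was followed through 10 genes in QBC-939 cells, a line from a human bile duct cancer (cholangiocarcinoma): thioredoxin (TXN), the thioredoxin reductases TXNRD1 and TXNRD2, sulfiredoxin (SRXN1) and the 6 peroxiredoxins PRDX1 to PRDX6. RNA was sequenced from cells overexpressing miR-182-5p, from cells overexpressing miR-183-5p and from control cells for which the labels give the overexpressed item as NC. Each of these 3 groups has 1 library. All groups carry the genotype label WT, and no source used here says how overexpression was achieved; both microRNA samples have "mim" in their titles. The 10 genes were chosen by symbol among the 30923 genes in the file, with earlier results of these libraries in view. Their ratios to NC are therefore a description and were not tested. With 1 library per group no replicate spread exists, so every difference below is between 2 libraries, and the 95% intervals given with ratios are exact and cover counting error only.

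Peroxiredoxins are abundant thiol peroxidases that reduce hydrogen peroxide and organic peroxides. In most of them the oxidised cysteine forms a disulfide that thioredoxin reduces, and thioredoxin is in turn reduced by a thioredoxin reductase, a selenocysteine-containing flavoenzyme that draws electrons from NADPH. Sulfiredoxin repairs peroxiredoxins whose active cysteine has been oxidised one step too far. Several of these genes are known targets of NRF2, the transcription factor of the response to oxidative and electrophilic stress, and many carcinomas express them strongly.

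Total gene counts were 61709874 with miR-182-5p, 67427313 with miR-183-5p and 64516706 for NC. All 8 biliary and epithelial markers looked up reached an FPKM (fragments scaled to transcript length and to library size) of at least 1 in every library. KRT7 was only just past that limit, at 1.03 FPKM in NC, 1.29 with miR-182-5p and 1.46 with miR-183-5p. None of the 3 hepatocyte and 2 endothelial markers did in any library, and of the leukocyte markers PTPRC had 0 counts in NC and miR-183-5p and 9 in miR-182-5p. The other leukocyte marker in the file, CD68, had 248 counts in NC, 172 with miR-182-5p and 107 with miR-183-5p. Its FPKM was 1.47 in NC and 1.08 with miR-182-5p, past the limit of 1, and 0.615 with miR-183-5p. The markers CD3E, COL1A2 and DCN, also looked up, are not in the file. Of the fibroblast markers VIM stayed below an FPKM of 1, and COL1A1 was at 0.952 FPKM in NC, 1.81 with miR-182-5p and 1.14 with miR-183-5p. Their part in the members' values was not tested. In bulk RNA, fewer cells expressing a gene and less RNA per cell cannot be told apart.

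Both microRNAs act by pairing their seed (bases 2 to 8) with messenger RNAs, usually in the 3′ untranslated region (UTR). The mature sequences (RefSeq, GRCh38.p14) are printed 5′ to 3′ with the seed in capitals. They come from chr7:129770447-129770470 and chr7:129774967-129774988, both on the minus strand.
miR-182-5p: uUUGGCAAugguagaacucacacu
miR-183-5p: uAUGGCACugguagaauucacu
A 7-base match to a seed was found in the longest annotated 3′ UTR (GENCODE release 29) of 3 of the 10 members. These sites are shown, with the match in capitals, because they are places where a member could pair with an overexpressed microRNA. Shorter matches are not shown, and other parts of the transcripts were not searched. The TXNRD1 site matches miR-182-5p (chr12:104348440-104348446, plus strand, 19 bases into the 3′ UTR). The TXNRD2 site (chr22:19876328-19876334, minus strand) and the PRDX6 site (chr1:173488613-173488619, plus strand) match miR-183-5p.
TXNRD1: gtgtggatgctgTTGCCAAgactgc
TXNRD2: ggccctcagcccGTGCCATccagcc
PRDX6: tgagcaatattaGTGCCATgtgcct
A miR-182-5p match was present in 1 of 10 members against 15.1% of 10850 measured genes searched, and a miR-183-5p match in 2 of 10 against 12.1%. The 3′ UTRs of the members ranged from 120 bases in PRDX5 to 2099 bases in SRXN1, and 7 of the 10 were shorter than the median of 1316 bases over the genes searched.

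All 10 members reached an FPKM of at least 1 in every library, so none was lost to the filter on low values. Per transcript length, PRDX1 and TXN stood far above the others. In the NC library PRDX1 had an FPKM of 474, at rank 37 of all genes in the file, and TXN 365, at rank 49. They were followed by PRDX5 at 106, PRDX6 at 67.9, PRDX3 at 62.8, TXNRD1 at 43.7, PRDX2 at 37.3 and SRXN1 at 30.9, with PRDX4 at 16.4 and TXNRD2 at 14.9 lowest. The order was nearly kept in the microRNA libraries; the exception was the pair TXNRD1 and PRDX2, with FPKM of 31.8 and 32.0 in the miR-182-5p library. Neighbouring genes with such close values cannot be ordered, since the spread between replicate cultures is not known.

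**Figure D1:**
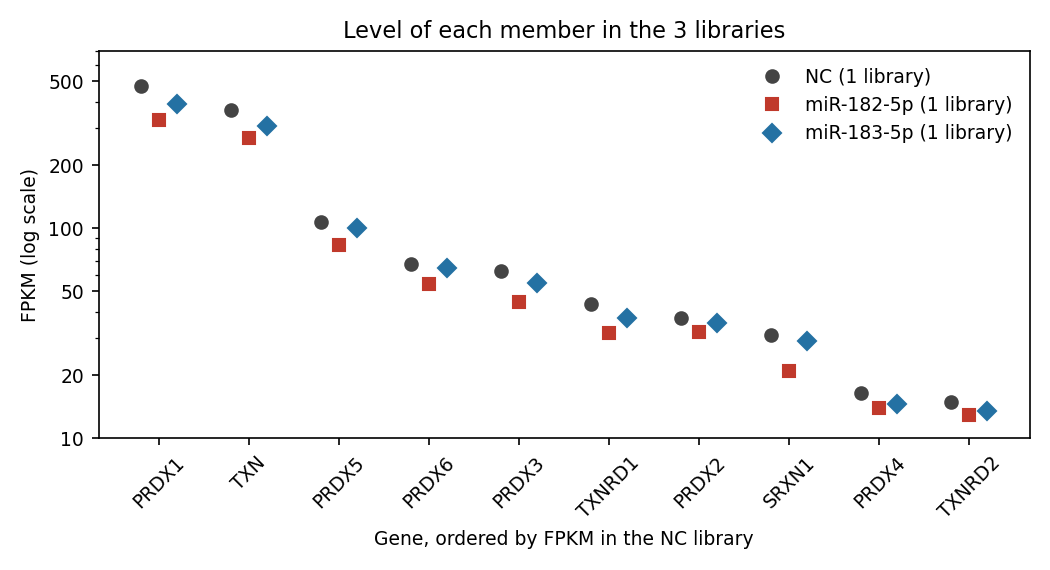
FPKM (log axis) of the 10 members, ordered by their level in the NC library; each symbol is 1 library, so there are no error bars. For each gene the NC library is highest and the miR-182-5p library lowest, and PRDX1 and TXN lie above all other members.

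Every member had its highest library-size-normalised count (CPM, the count scaled to the library total) in NC, its middle value with miR-183-5p and its lowest with miR-182-5p. Summed over the 10 genes, CPM was 2574 in NC, 2193 with miR-183-5p and 1869 with miR-182-5p. A fixed size served as the call, at least 20% below (a ratio of 0.8 or less) or at least 25% above the library compared with, over genes that reached an FPKM of 1 in either library. With miR-182-5p 7 of 10 members were lower than NC by that size and 0 higher, where 15.3% of 13267 measured genes were lower and 20.7% higher. With miR-183-5p 0 of 10 passed in either direction, where 7.50% of 12926 genes were lower and 8.97% higher. Between the microRNAs SRXN1 alone passed, being lower with miR-182-5p, where 6.45% of 13308 genes were lower and 14.5% higher. The comparisons with NC share that library, so their ratios are not independent.

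The scaling between libraries moved these counts but no member's direction. With CPM taken over nuclear genes only, PRDX5 and PRDX6 no longer passed with miR-182-5p, which left 5 of 10. Mitochondrial genes, left out in that scaling, took 13.5% of counts in NC, 16.7% with miR-182-5p and 16.1% with miR-183-5p. Over nuclear genes 1474 genes were lower and 3179 higher against 2024 and 2748 over all counted genes. With TMM scaling 7 members stayed past the size, and 2729 genes were lower and 2317 higher. For miR-183-5p against NC 759 genes were lower and 1382 higher over nuclear genes, against 970 and 1159. Between the microRNAs TMM gave 4 lower members, with 1400 genes lower and 1434 higher against 859 and 1930, and median-of-ratios scaling gave 2 lower members.

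Lower values with miR-182-5p were common among highly expressed genes. Of the 518 genes with a mean FPKM of at least 50 over the 3 libraries, 40.3% were at least 20% below NC with miR-182-5p and 2.90% with miR-183-5p. PRDX1, TXN, PRDX5, PRDX6 and PRDX3 belong to this level class, and 5 of 5 were lower by that size with miR-182-5p and 0 of 5 with miR-183-5p. The median log2 ratio was -0.415 for the 10 members, -0.256 for the class of high level and -0.010 for all measured genes with miR-182-5p. The same medians were -0.186, -0.109 and -0.033 with miR-183-5p. The part of general level in the members' ratios was not tested.

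**Figure D2:**
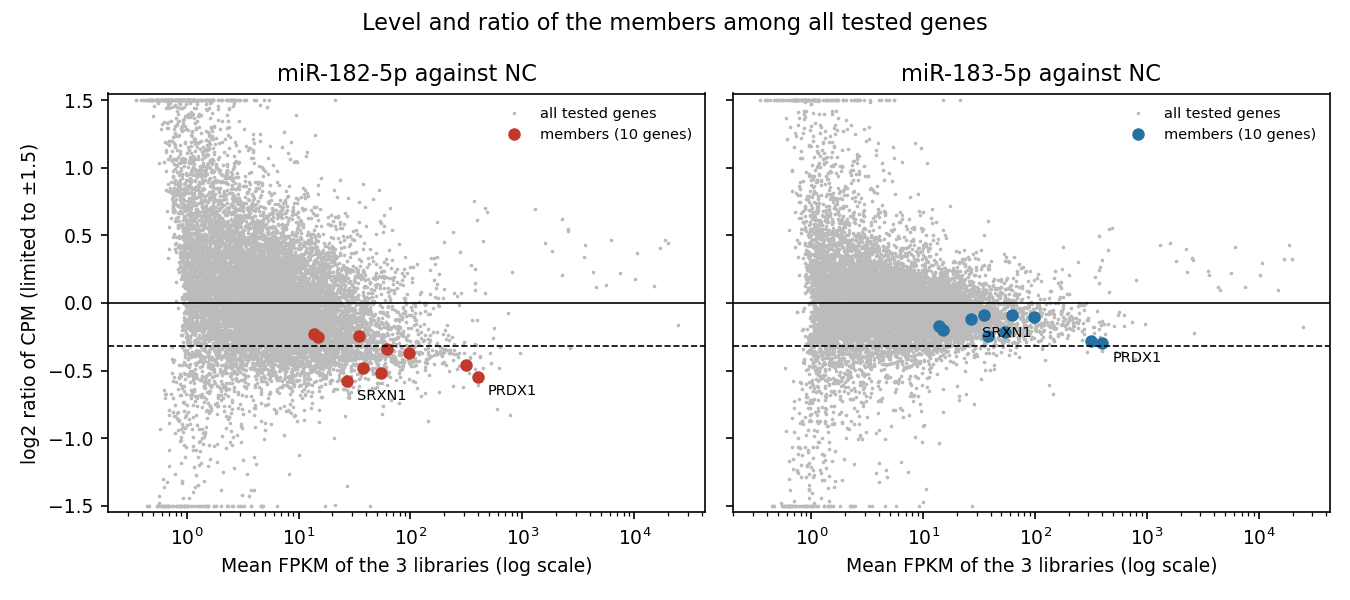
Log2 ratio of CPM to NC (limited to plus or minus 1.5) against the mean FPKM of the 3 libraries (log axis); grey points are all measured genes, coloured points the 10 members, and the dashed line marks a level 20% below NC. With miR-182-5p 7 members lie below the dashed line, and with miR-183-5p all 10 lie between it and 0.

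Thioredoxin itself is the small dithiol protein that hands electrons to peroxiredoxins, ribonucleotide reductase and methionine sulfoxide reductases. TXN (ENSG00000136810, chr9:110243810-110256507) had 28601 counts in NC (443 CPM), 24656 with miR-183-5p (366 CPM) and 19903 with miR-182-5p (323 CPM). The ratio to NC was thus 0.728 with miR-182-5p (0.714 to 0.741) and 0.825 with miR-183-5p (0.811 to 0.839). Of all measured genes, 6.70% had a lower ratio than TXN with miR-182-5p and 10.1% with miR-183-5p. The mitochondrial thioredoxin TXN2, which is no member, was at 0.719 with miR-182-5p (0.674 to 0.767) but at 0.951 with miR-183-5p, where the interval (0.897 to 1.01) includes 1.

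The 2 reductases differed in how far below NC they lay. TXNRD1 (ENSG00000198431, chr12:104215779-104350307), the cytosolic enzyme, had 22743 counts in NC (353 CPM), 20092 with miR-183-5p (298 CPM) and 15599 with miR-182-5p (253 CPM). It was at 0.717 times NC with miR-182-5p (0.703 to 0.732) and at 0.845 with miR-183-5p (0.829 to 0.861). Its mitochondrial counterpart TXNRD2 (ENSG00000184470, chr22:19875517-19941818) had 9489, 8808 and 7732 counts in the same order, or 147, 131 and 125 CPM. TXNRD2 was the least lowered member with miR-182-5p, at 0.852 times NC (0.827 to 0.878), though its interval overlaps those of PRDX2 and PRDX4. TXNRD2 was at 0.888 with miR-183-5p (0.863 to 0.914). The interval of TXNRD2 lies above that of TXNRD1 in both comparisons, and per length TXNRD1 was at 2.93 times TXNRD2 in NC, 2.79 with miR-183-5p and 2.47 with miR-182-5p. Genomic overlap bears on these counts. The ribosomal pseudogene RPL18AP3, with 2670 counts in NC, 2593 with miR-183-5p and 1834 with miR-182-5p, lies within TXNRD1 on its strand. How strand and overlap were treated in counting is not given in the sources used here, so reads of TXNRD1 and RPL18AP3 may not be fully separated, and the counts of TXNRD2 carry the same uncertainty.

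With miR-182-5p, TXNRD1, which holds the 7-base match, and SRXN1 and PRDX6, which hold a shorter 6-base match to this seed, were at 0.717, 0.669 and 0.788 times NC. With miR-183-5p, TXNRD2 and PRDX6, which hold 7-base matches, were at 0.888 and 0.94, and TXN and PRDX4, which hold 6-base matches, at 0.825 and 0.871. PRDX1, PRDX2, PRDX3 and PRDX5 hold no match of either length to either seed. They were at 0.685, 0.846, 0.698 and 0.773 times NC with miR-182-5p. With miR-183-5p they were at 0.813, 0.938, 0.860 and 0.932. The share of all measured genes that hold a 6-base match is not given here. The part of pairing in these ratios was not tested.

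Sulfiredoxin had the lowest ratio to NC with miR-182-5p, although its interval overlaps those of PRDX1 and PRDX3, and the lowest ratio between the microRNAs, where it overlaps no other member's. SRXN1 (ENSG00000271303, chr20:646615-653200) had 6055 counts in NC (93.9 CPM), 5842 with miR-183-5p (86.6 CPM) and 3877 with miR-182-5p (62.8 CPM). The miR-183-5p library was thus close to NC and the miR-182-5p library apart from both. The ratio to NC was 0.669 with miR-182-5p (0.643 to 0.697) and 0.923 with miR-183-5p (0.890 to 0.957). Between the microRNA libraries it was 0.725 (0.696 to 0.755), the lowest of the 10, and 3.27% of all measured genes had a lower ratio there. Against NC 3.44% of genes were lower than SRXN1 with miR-182-5p, but 32.5% with miR-183-5p.

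PRDX1 and PRDX2 are the cytosolic peroxiredoxins of the typical kind, which work as dimers and are substrates of sulfiredoxin. PRDX1 (ENSG00000117450, chr1:45511036-45521938) had 55232 counts in NC (856 CPM), 46929 with miR-183-5p (696 CPM) and 36187 with miR-182-5p (586 CPM). It was at 0.685 times NC with miR-182-5p (0.676 to 0.694) and at 0.813 with miR-183-5p (0.803 to 0.823). The latter was the lowest ratio of any member with miR-183-5p, though its interval overlaps those of TXN and PRDX4. On the opposite strand MMACHC, a cobalamin-processing gene, overlaps PRDX1 and had more counts with either microRNA, with 876 counts in NC, 1125 with miR-183-5p and 1050 with miR-182-5p. PRDX2 (ENSG00000167815, chr19:12796820-12801800) had 5881, 5766 and 4759 counts in NC, miR-183-5p and miR-182-5p, or 91.2, 85.5 and 77.1 CPM. Its ratios to NC were 0.846 with miR-182-5p (0.814 to 0.879) and 0.938 with miR-183-5p (0.905 to 0.973), both nearer to 1 than those of PRDX1, with intervals that do not overlap those of PRDX1.

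PRDX3, the mitochondrial member of the same typical kind (ENSG00000165672, chr10:119167720-119178812), had 16455 counts in NC (255 CPM), 14781 with miR-183-5p (219 CPM) and 10988 with miR-182-5p (178 CPM). It was at 0.698 times NC with miR-182-5p (0.681 to 0.715) and at 0.860 with miR-183-5p (0.841 to 0.879). PRDX3 therefore lay next to PRDX1 with miR-182-5p, while TXNRD2, the reductase of the same compartment, did not. PRDX4 (ENSG00000123131, chrX:23664262-23686397), which resides in the endoplasmic reticulum, had the fewest counts of the 10, with 2363 in NC (36.6 CPM), 2150 with miR-183-5p (31.9 CPM) and 1899 with miR-182-5p (30.8 CPM). Its ratios were 0.840 with miR-182-5p (0.791 to 0.893) and 0.871 with miR-183-5p (0.821 to 0.923). It was the only member whose interval between the microRNA libraries (0.907 to 1.03, at a ratio of 0.965) included 1.

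PRDX5 and PRDX6 differ in chemistry from the others. PRDX5 (ENSG00000126432, chr11:64318121-64321811) is the atypical peroxiredoxin of mitochondria, peroxisomes and cytosol, and had 7101 counts in NC (110 CPM), 6919 with miR-183-5p (103 CPM) and 5253 with miR-182-5p (85.1 CPM). PRDX6 (ENSG00000117592, chr1:173477330-173488815), which uses a single cysteine and glutathione and also has phospholipase activity, had 12169 counts in NC (189 CPM), 11954 with miR-183-5p (177 CPM) and 9169 with miR-182-5p (149 CPM). With miR-182-5p PRDX5 was at 0.773 times NC (0.746 to 0.802) and PRDX6 at 0.788 (0.767 to 0.810). With miR-183-5p they were at 0.932 (0.902 to 0.964) and 0.94 (0.916 to 0.964). With miR-182-5p the intervals of both genes reach past 0.8, so their place among the 7 lies within counting error.

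**Figure D3:**
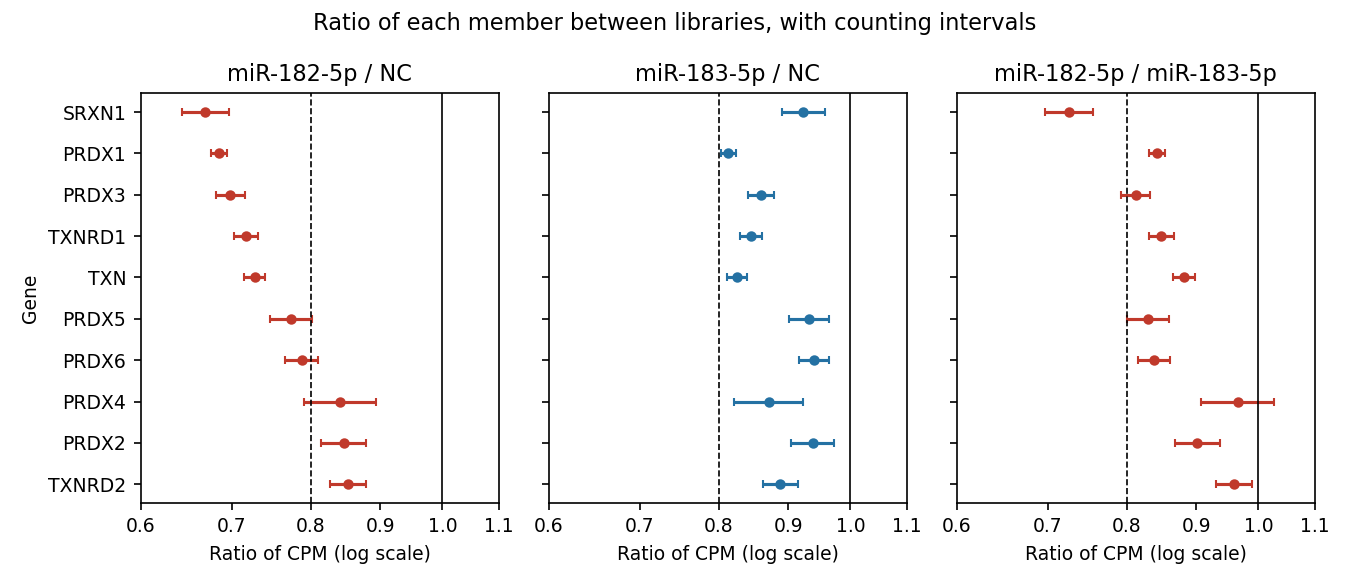
Ratio of CPM between libraries (log axis) for each member, ordered by the ratio of miR-182-5p to NC; bars are exact 95% intervals for counting error only, the solid line marks 1 and the dashed line a ratio of 0.8. SRXN1 has the lowest ratio for miR-182-5p against either other library and PRDX1 for miR-183-5p against NC, and the interval of PRDX4 between the microRNAs is the only one to reach 1.

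The members thus differed in how the microRNA libraries related to each other. On the log2 scale the difference with miR-183-5p was 0.796 of that with miR-182-5p for PRDX4 and 0.740 for TXNRD2. It was 0.605 for TXN, 0.547 for PRDX1, 0.505 for TXNRD1 and 0.421 for PRDX3. It was smallest for PRDX2 at 0.382, PRDX5 at 0.273, PRDX6 at 0.260 and SRXN1 at 0.199. These shares have the NC library in both terms and describe the 3 libraries only.

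The makeup of the system per transcript length varied less than its total. The FPKM of the 6 peroxiredoxins summed to 765 in NC, 661 with miR-183-5p and 557 with miR-182-5p. PRDX1 supplied 62% of this sum in NC and 59.1% in each microRNA library. In the order NC, miR-183-5p and miR-182-5p, PRDX5 supplied 13.9%, 15.2% and 15.0%. PRDX2 supplied 4.87%, 5.37% and 5.74% in that order, and PRDX4 2.15%, 2.19% and 2.51%. PRDX1 had 28.8 times the FPKM of PRDX4 in NC, 26.9 with miR-183-5p and 23.5 with miR-182-5p. TXN had 8.36 times the FPKM of TXNRD1 in NC, 8.15 with miR-183-5p and 8.48 with miR-182-5p. PRDX1 had 15.3 times the FPKM of SRXN1 in NC and 15.7 with miR-182-5p, but 13.5 with miR-183-5p.

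Processed pseudogenes of TXN, PRDX1, PRDX2 and PRDX3 had few reads. The highest was PRDX3P1, with 11 counts in NC, 52 with miR-182-5p and 62 with miR-183-5p. No pseudogene row reached 100 counts in any library.

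Promoter windows (250 bases before to 50 after an annotated start, RefSeq, GRCh38.p14) were available for 8 members and were searched for the core of the antioxidant response element that NRF2 binds, TGACNNNGC, on both strands. PRDX1 and PRDX6 were not analysed here in this respect. A core was found in 2 of the 12 member windows (16.7%), both of TXNRD1, and in 13.3% of all 35116 windows. The 3 cores of TXNRD1 lie in windows of its alternative starts and are printed on the gene's plus strand with the core in capitals, the last 2 being matches on the opposite strand. They lie at chr12:104215680-104215688, chr12:104215771-104215779 and chr12:104286930-104286938.
TXNRD1 core 1: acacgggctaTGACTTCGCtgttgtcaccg
TXNRD1 core 2: gcgtccttcgGCTCCGTCAgttcccacagg
TXNRD1 core 3: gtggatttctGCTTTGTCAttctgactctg
A match is a description of these letters and not evidence of binding.

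Other genes of thiol redox biology were read from 9 further lists, given here by the ratio of CPM to NC. Each list count below is to be read beside the shares over all measured genes. These were 15.3% lower and 20.7% higher with miR-182-5p, and 7.50% lower and 8.97% higher with miR-183-5p. Of those named, TXNDC11, GLRX5, SOD2, MAFK, SQSTM1 and PDIA5 overlap a gene with more than 500 counts in NC, so their counts carry the same uncertainty as those of TXNRD1. The list of thioredoxin-fold genes also holds TXNIP. Of its 18 measured genes, 5 were lower by at least 20% with miR-182-5p and 1 with miR-183-5p, and 0 were higher by 25% in either. The lowest with miR-182-5p were TXNRD3, a reductase with an added glutaredoxin domain, at 0.634 (0.565 to 0.710) and TXN2. TXNDC11 and TXNDC16, thioredoxin-domain proteins of the endoplasmic reticulum, had the highest ratios, with TXNDC11 at 1.09 with miR-182-5p (1.02 to 1.16) and TXNDC16 at 1.11 with miR-183-5p, where the interval (0.993 to 1.23) includes 1. TXNIP, the arrestin-like protein that binds thioredoxin and blocks it, was at 1.07 with miR-182-5p (1.02 to 1.12) and 0.942 with miR-183-5p (0.898 to 0.988), so it was not lower alongside TXN in the miR-182-5p library.

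Of the 4 glutaredoxins, which use glutathione in place of thioredoxin reductase, 1 was lower by at least 20% with miR-182-5p and 0 with miR-183-5p. It was GLRX5, a protein of mitochondrial iron-sulfur cluster assembly, at 0.760 (0.714 to 0.807), followed by GLRX3 at 0.856 (0.828 to 0.885). Of 11 measured thioredoxin-dependent enzymes, clients and sestrins, 2 were lower and 2 higher with miR-182-5p, and 1 was lower with miR-183-5p. The lower ones were MSRB1, a selenium-containing methionine sulfoxide reductase, at 0.614 (0.559 to 0.673), and RRM2, the small subunit of ribonucleotide reductase, at 0.782 (0.759 to 0.805). MSRB1 was also the lower one with miR-183-5p, at 0.576 (0.525 to 0.632). The higher ones were the sestrins SESN3 at 1.34 (1859 counts against 1451 in NC) and SESN1 at 1.28 (1.19 to 1.38), stress-induced proteins that restrain mTORC1 signalling.

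The thioredoxin reductases depend on selenocysteine insertion. Of 6 measured genes listed for that process, 2 were lower by at least 20% with miR-182-5p and 0 with miR-183-5p. These were SEPHS1 at 0.733 (0.704 to 0.763) and SEPHS2, which makes the selenium donor, at 0.779 (0.740 to 0.819). SECISBP2, which binds the selenocysteine insertion element, was at 1.04 with miR-182-5p and 1.09 with miR-183-5p (1.04 to 1.14). Of the 5 measured genes of the glutathione peroxidase family, 4 were lower with miR-182-5p and 2 with miR-183-5p. GPX2 was at 0.649 (0.639 to 0.659) and 0.776 (0.765 to 0.787), and GPX4, which reduces lipid peroxides, at 0.680 (0.655 to 0.706) and 0.708 (0.683 to 0.734). GPX8, an endoplasmic reticulum protein, was on the other side at 1.22 with each microRNA. Of the superoxide dismutases, catalase and the copper chaperone CCS, 1 of 5 was lower and 1 higher with miR-182-5p. The cytosolic SOD1 was at 0.732 (0.702 to 0.762) and the secreted SOD3 at 1.35 (1.21 to 1.5). CCS was at 1.22 (1.13 to 1.31). The mitochondrial SOD2 was at 0.859 with miR-183-5p (0.818 to 0.903).

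Of 9 measured disulfide isomerases and thiol oxidases of the endoplasmic reticulum, 0 passed the size in either direction with either microRNA, and the median log2 ratio was 0.102 with miR-182-5p and 0.035 with miR-183-5p. The oxidases QSOX1 and ERO1A were both at 1.19 with miR-182-5p (1.17 to 1.21 and 1.15 to 1.23). PDIA5 was at 1.09 with miR-182-5p and 0.970 with miR-183-5p, and PDIA6 at 0.990 and 0.972. PDIA4, at 253 FPKM in NC, was at 1.04 times NC with miR-182-5p (1.025 to 1.048), and P4HB, at 160 FPKM, at 0.975 (0.964 to 0.986). Lower values did occur among other thiol proteins of this compartment with miR-182-5p, such as PRDX4 at 0.840, TXNDC5 at 0.883 (0.867 to 0.898) and TMX4, which passed the size at 0.7996 (0.743 to 0.861). PDIA4, P4HB, TXNDC5 and TMX4 were chosen after their values were seen.

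**Figure D4:**
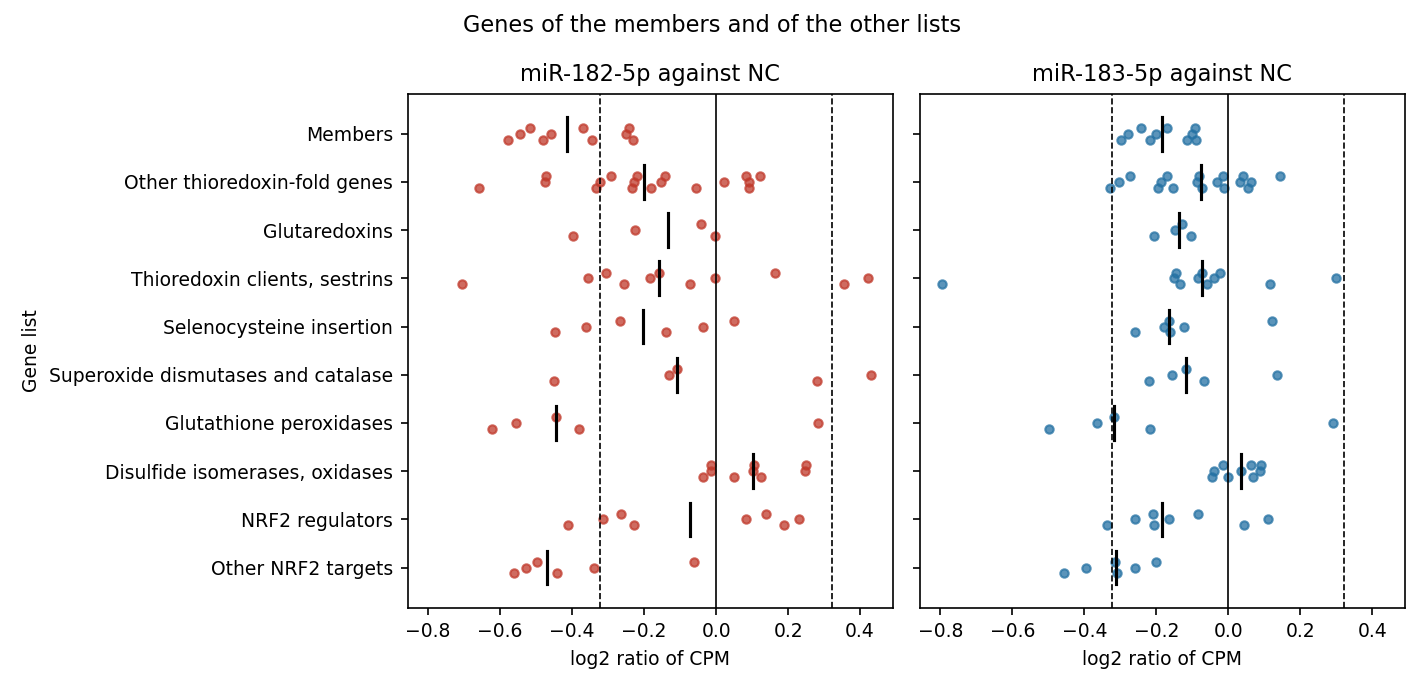
Log2 ratio of CPM to NC for each measured gene of the 10 members and the 9 other lists; points are genes, short vertical lines medians, and dashed lines mark 20% below and 25% above NC. All 10 members lie below 0 in both panels, and no gene of the disulfide isomerase and oxidase list passes a dashed line.

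NRF2 itself (NFE2L2) was at 0.833 times NC with miR-182-5p (0.805 to 0.861) and 0.867 with miR-183-5p (0.839 to 0.896). KEAP1, the adaptor that marks NRF2 for degradation, was at 0.753 (0.715 to 0.792) and 0.792 (0.754 to 0.832). KEAP1 was the 1 of 8 NRF2 regulators lower by at least 20% with miR-182-5p, and likewise with miR-183-5p. SQSTM1, which binds KEAP1, was at 0.804 with miR-182-5p (0.790 to 0.819). The small MAF partners MAFK and MAFG were at 1.17 (1.12 to 1.23) and 1.14 (1.1 to 1.18) with miR-182-5p. Of 6 other NRF2 targets read for comparison, 5 were lower by at least 20% with miR-182-5p and 2 with miR-183-5p. Over all measured genes these shares were 15.3% and 7.50%. The target that did not pass with miR-182-5p was SLC7A11, at 0.959 with 20898 counts in NC. The median log2 ratios of the 6 targets, -0.469 and -0.312, compare with -0.415 and -0.186 for the members. NQO1, a quinone reductase, was at 0.677 with miR-182-5p (0.664 to 0.690) and 0.807 with miR-183-5p (0.792 to 0.821).

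The 5 genes closest to SRXN1 in their pair of log2 ratios to NC, among 10363 genes that had 500 counts or more in all libraries, were UCP2, CCNQ, GRPEL1, CISD1 and BABAM2, at distances of 0.017 to 0.031. UCP2 was at 0.666 with miR-182-5p and 0.933 with miR-183-5p. Closest to TXNRD1 were AC115223, ARL2, SMS, MRPS35 and UNG, at distances of 0.005 to 0.011. ARL2 was at 0.713 and 0.845. The likeness rests on 3 libraries and 2 ratios that share the NC library.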

How the data were processed

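The authors deposited 1 table of gene counts and FPKM values for the 3 libraries, 1 per group. The counts are whole numbers per gene and the FPKM values are the authors', per the file headers, which name no program. The submitters' processing notes name cutadapt 1.9 and FastQC, without their role, and the build GRCm38, a mouse assembly, although the identifiers in the file are human. No source used here names the aligner, counting program, strand setting or annotation. Coordinates are those of the file. Of its identifiers, 97.3% are in GENCODE release 29 (GRCh38), and each member lies at the same GRCh38 locus there with slightly different ends.

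Ratios are of CPM over all counted genes, with exact (Clopper-Pearson) 95% intervals conditional on the sum of both counts (Python 3.11.15, SciPy 1.17.1). A fold of 1.25 was a rule of size among genes with FPKM of at least 1 in either library, since 1 library per group allows no test. Seed matches were searched in the longest basic 3′ UTR. Other scalings (nuclear genes only, median of ratios, TMM from edgeR 4.0.16, FPKM), filters and folds were tried. The intervals and the rule of size were checked on simulated libraries drawn with counting error only. That check cannot speak to the spread between cultures.

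The members, lists and thresholds were chosen with earlier results of these data known. Named were all members, TXN2, TXNIP, TXNRD3, NFE2L2 and KEAP1, and up to 2 genes per direction and list with the largest ratio to NC. The rule also named pseudogenes with at least 100 counts and the 5 genes nearest to SRXN1 and to TXNRD1. PRDX3P1, MMACHC, RPL18AP3, PDIA4, P4HB, TXNDC5, TMX4 and SLC7A11 were added after their values were seen. Some results are not reported here.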

Additional observations from a re-analysis of the deposited data

How the results depend on the processing

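All 10 members had ratios below 1 in the 3 comparisons under each of the 6 scales tried (CPM, CPM over nuclear genes, median of ratios, TMM, and FPKM with a pseudocount of 1 or 0.1). The number lower by at least 20% with miR-182-5p against NC was 7 by CPM, median of ratios and TMM, 6 by FPKM plus 1 and 5 by nuclear CPM. It was 0 at 1.5-fold and 0 at 2-fold. With miR-183-5p against NC it was 0 under every setting. Between the microRNA libraries it was 1 by CPM, 2 by median of ratios, 4 by TMM, and 0 at 1.5-fold and at 2-fold. The members' median log2 ratio with miR-182-5p against NC was -0.359 by nuclear CPM and -0.474 by TMM, against -0.415, and between the microRNA libraries -0.270 by median of ratios and -0.312 by TMM, against -0.242; these scales differ by a constant over all genes. Adding pseudogene counts, possible for TXN, PRDX1, PRDX2 and PRDX3, left their ratios within their intervals.

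Counts over all genes are given as at least 20% lower and at least 25% higher, for miR-182-5p against NC, miR-183-5p against NC and miR-182-5p against miR-183-5p in turn. They were 2024 and 2748, 970 and 1159, 859 and 1930 by CPM. The split moved with the scale: 1474 and 3179, 759 and 1382, 799 and 2023 by nuclear CPM, 2108 and 2702, 867 and 1246, 1047 and 1692 by median of ratios and 2729 and 2317, 908 and 1197, 1400 and 1434 by TMM. With FPKM plus 1 they were 1329 and 2081, 509 and 717, 529 and 1135. At 1.5-fold they were 447 and 1343, 337 and 505, 286 and 779, and at 2-fold 135 and 494, 137 and 226, 131 and 288. Without the FPKM filter they were 6583 and 11263, 6275 and 8203, 5927 and 9602. They were 1217 and 602, 293 and 153, 259 and 290 for genes whose mean FPKM reached 5, and 209 and 37, 15 and 16, 26 and 6 where it reached 50. No paired analysis was possible because each group has 1 library, and for the same reason no library could be left out.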

Other observations

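TXNRD1, TXNRD2 and several of the glutathione peroxidases are selenoproteins, and MSRB1 is one too, so all 25 human selenoprotein genes were looked up after these values were seen. Of these, 23 are in the file and 19 were measured. With miR-182-5p 10 of the 19 were at least 20% below NC and 0 at least 25% above, at a median log2 ratio of -0.361. With miR-183-5p 3 were lower and 0 higher, at a median of -0.203. The 19 include the genes whose values prompted the lookup. Over all measured genes 15.3% were lower and 20.7% higher with miR-182-5p, at a median of -0.010. The same shares were 7.50% and 8.97% with miR-183-5p, at a median of -0.033. Of the 10 measured selenoprotein genes on no other list, 2 were lower with miR-182-5p and 0 higher, at a median of -0.053, and 0 of 10 passed that size with miR-183-5p, at a median of -0.145. The lower ones were SELENOT at 0.737 (0.703 to 0.772) and SELENOK at 0.75 (0.692 to 0.813), both proteins of the endoplasmic reticulum membrane. SELENOW was at 1.12 (1.06 to 1.19) and the secreted selenium carrier SELENOP at 1.20 (1.08 to 1.34) with miR-182-5p.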
